A study of Mus musculus with 6 samples.

Results

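The Notch genes described here comprise the receptors Notch1, Notch2 and Notch4, the ligands Jag1, Jag2 and Dll4, and the target genes Hes1, Hey1, Heyl and Nrarp. They were taken by symbol from probe sets annotated to a single gene, which gave 21 probe sets for the 10 genes, out of 45037 probe sets and 18193 genes in all. For each gene the probe set brightest on average over the 6 arrays was used, and its other probe sets are shown beside it. This choice favours a probe set that is bright in either population, so it draws on the values that are compared.

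RNA came from cells of fore and hind limb skeletal tissue of mice at postnatal day 3, with the limbs of a litter pooled, and was hybridised to Affymetrix mouse arrays of a single colour. One population, here termed Tie2-negative, was sorted as lacking CD45, Ter119, integrin alpha V (Itgav) and the angiopoietin receptor Tie2, and had 3 arrays. The other, termed Tie2-positive, lacked CD45 and Ter119, carried integrin alpha V at a low level together with Tie2, and also had 3 arrays. CD45 marks leukocytes and Ter119 the red-cell lineage. All samples are labelled wild type and untreated, although the labels' protocol also speaks of GFP-labelled mice. Whether replicates stem from different litters is not in the labels, so p-values here reflect only the spread between these samples, part of which may be technical.

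Notch receptors sit on the cell surface and are engaged by Delta-like and Jagged ligands on neighbouring cells. Ligand binding exposes the receptor to cleavage by an ADAM protease and then by gamma-secretase, and the freed intracellular domain enters the nucleus, where it joins the DNA-binding protein Rbpj and switches on genes such as those of the Hes and Hey repressors. In blood vessels the pathway is known for its part in sprouting and in the specification of arteries, with Notch1 and Notch4 as receptors of endothelium and Dll4 and Jag1 as ligands. Notch1 and Notch2 are also used by blood cells, and Heyl by the mural cells that surround vessels.

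The arrays agreed less well within the Tie2-positive population than within the other. Over all genes, correlations ran from 0.898 to 0.980 among Tie2-positive and from 0.969 to 0.983 among Tie2-negative arrays. Tek, which encodes Tie2, read 12.06, 10.86 and 9.80 in Tie2-positive replicates 1, 2 and 3, as log2 values after quantile normalization, the scale used throughout; the Tie2-negative arrays read 4.79 to 4.90. Ptprc, which encodes the CD45 antigen excluded by both gates, read 4.87 in Tie2-positive replicate 1 but 9.95 and 11.23 in replicates 2 and 3, with 9.42 to 10.41 on the Tie2-negative arrays. The median of 15 endothelial marker genes was 11.74, 10.27 and 8.90 in Tie2-positive replicates 1, 2 and 3, above the 5.73 to 6.16 of the Tie2-negative arrays. Across 9 genes of neutrophils and monocytes the median stood at 6.08, 11.74 and 13.34 in the same Tie2-positive arrays and 6.35, 8.11 and 8.68 in Tie2-negative replicates 1, 2 and 3. The Tie2-negative arrays also carried erythroid (7 genes, medians from 10.27 to 11.77) and B-lineage transcripts (9 genes, 7.85 to 10.47), which were lower in the Tie2-positive arrays (5.13 to 7.09 and 5.40 to 5.74). Of the marker genes, 11 of 15 endothelial genes rose, 3 of 7 erythroid and 6 of 9 B-lineage genes fell, and 0 of 9 neutrophil and monocyte genes passed, also at an unadjusted p under 0.05 (0 of 9). Of 7 megakaryocyte genes, Pf4 rose by 5.29, and the median of that list was 6.74, 9.86 and 8.58 in Tie2-positive replicates 1, 2 and 3 against 6.12 to 6.33. Of 8 genes of skeletal mesenchyme 0 passed, also at an unadjusted p under 0.05. The part of these cells in the results on Notch genes was not tested.

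**Figure D1:**
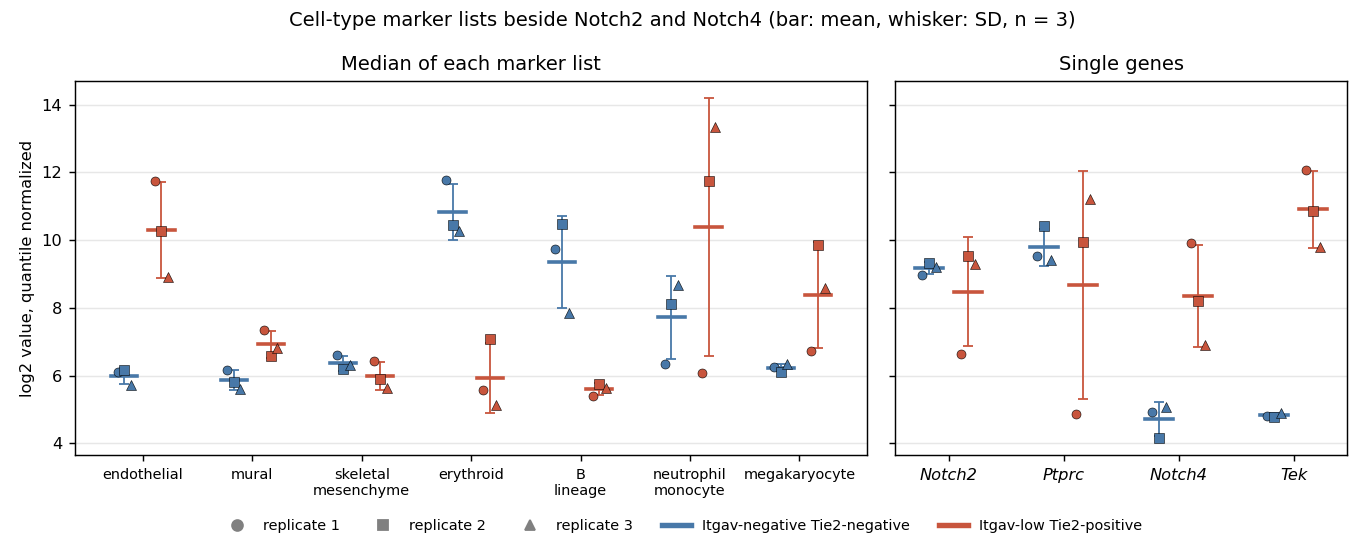
Log2 values on each array (points, shaped by replicate) with mean (bar) and SD (whisker, n = 3) for the medians of 7 cell-type marker lists and for Notch2, Ptprc, Notch4 and Tek. Tie2-positive replicate 1 is the array with the highest endothelial median (11.74), a low Ptprc value (4.87) and the lowest Notch2 value (6.63).

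The comparison asked which Notch genes differ between Tie2-positive and Tie2-negative cells of the limb. Notch1, Notch4 and Jag1 were higher in the Tie2-positive population, by 4.70-, 12.4- and 16.8-fold in array values, and none of the 10 genes was called lower. Jag2, Dll4, Hes1, Hey1, Heyl, Nrarp and Notch2 did not pass the threshold of an adjusted p of 0.05 (limma, Benjamini-Hochberg over 18193 genes). The rise was thus called for 2 of 3 receptors, 1 of 3 ligands and 0 of 4 target genes, and 2 of the 4 target genes had an unadjusted p under 0.05. Over all genes limma called 4.86% higher and 2.53% lower, and 28.6% had an unadjusted p under 0.05. In 7 of the 10 genes the 3 Tie2-positive arrays lay above the 3 Tie2-negative arrays, against 15.2% of all genes. Tie2-negative values of Notch4 (4.16 to 5.07) and Jag1 (3.90 to 4.10) lay near or below the arrays' lower quartile of deposited values (4.48 to 4.62), and without detection calls they are not shown to be above background, so these folds are those of the array values. When each gene was read as the average over its probe sets, the log2 differences of Notch1, Notch4 and Jag1 were 1.59, 1.27 and 1.76, and those of Notch1 and Notch4 no longer passed (limma adjusted p = 0.0744, 0.0896 and 0.0244). The probe sets used for Notch4 and Jag1 were the brightest of their gene only through the Tie2-positive arrays. In the Tie2-negative arrays they averaged 4.715 and 3.973. The other Notch4 probe sets averaged 4.838 and 4.685 there, and the other Jag1 probe sets 5.222 and 4.431. The median log2 difference was 1.20 over the 10 genes and -0.11 over all genes. The 10 genes were chosen with earlier results of these data known, so their counts and median beside those of all genes are descriptive only. In these bulk samples, fewer cells of a type and less RNA per cell cannot be told apart.

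How many Notch genes were called changed with the model and with the arrays used. With the replicate number fitted as a block, limma called 0 Notch genes and 0 of all genes (5080 at an unadjusted p under 0.05). The count was 0 without Tie2-negative replicate 1 or 2, where limma called 0 of all genes (4012 and 3980 at an unadjusted p under 0.05). It was 1 (Jag1) without Tie2-negative replicate 3 and 2 (Jag1 and Hey1) without Tie2-positive replicate 2. Without Tie2-positive replicate 1 or 3 it was 3 each time, and the genes were Notch1, Notch4 and Jag1. When Tie2-positive replicates 2 and 3 were dropped together, which was decided with the data in view, 7 Notch genes were called higher and Notch2 lower. That fit borrows the spread of the Tie2-negative arrays for the remaining Tie2-positive array, and limma called 3637 of all genes.

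**Figure D2:**
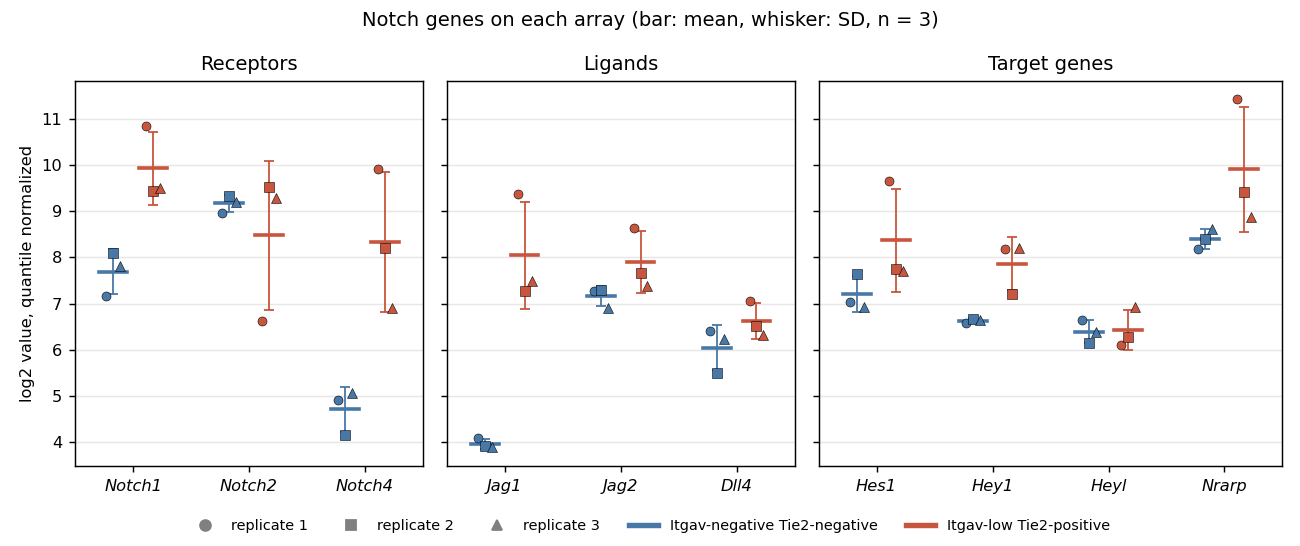
Log2 value of each Notch gene on each of the 6 arrays (points, shaped by replicate), with the mean (bar) and SD (whisker) of the 3 arrays of each population. All Tie2-positive points lie above the Tie2-negative points for 7 genes and below them for 0, against 15.2% and 23.9% of all genes. The points overlap for Notch2, Dll4 and Heyl, and the Notch2 value of Tie2-positive replicate 1 (6.63) stands below all others of that gene.

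The start regions of the genes are shown because Notch signalling acts on its targets, Nrarp among them, through Rbpj sites in DNA. RefSeq (GRCm38.p6) windows were matched for 7 of the 10 genes, and the 250 bases before the annotated start site were searched on both strands for TGGGAA, the core of the Rbpj motif, for its longer form GTGGGAA, and for CACGTG, an E-box that Hey and other helix-loop-helix factors bind. TGGGAA is contained in GTGGGAA. Hes1, Hey1 and Heyl had no window and were not searched, so Nrarp was the only target gene among the 7. Neither TGGGAA nor GTGGGAA occurred in the 7 windows, while 21.6% and 5.42% of all 32851 promoter windows hold them. The Nrarp window alone held CACGTG, from base -108 to base -103 before the start site, a motif found in 6.02% of all windows. A match or its absence describes these letters in this window and not a binding site. Those of the 3 called genes and of Nrarp are printed 5′ to 3′ on the strand of the gene, with capitals marking the motif; they lie at chr17:34564045-34564294 (plus strand) for Notch4, chr2:26503823-26504072 (minus) for Notch1, chr2:137116521-137116770 (minus) for Jag1 and chr2:25180508-25180757 (plus) for Nrarp.
Notch4: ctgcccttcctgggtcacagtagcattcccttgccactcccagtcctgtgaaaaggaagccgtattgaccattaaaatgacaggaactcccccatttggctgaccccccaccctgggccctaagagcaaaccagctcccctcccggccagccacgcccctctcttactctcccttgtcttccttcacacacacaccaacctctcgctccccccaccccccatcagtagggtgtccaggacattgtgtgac
Notch1: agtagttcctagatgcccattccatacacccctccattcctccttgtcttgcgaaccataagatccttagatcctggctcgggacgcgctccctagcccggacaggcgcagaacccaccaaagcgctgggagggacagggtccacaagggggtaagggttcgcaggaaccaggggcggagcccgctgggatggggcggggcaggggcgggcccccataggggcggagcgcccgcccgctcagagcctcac
Jag1: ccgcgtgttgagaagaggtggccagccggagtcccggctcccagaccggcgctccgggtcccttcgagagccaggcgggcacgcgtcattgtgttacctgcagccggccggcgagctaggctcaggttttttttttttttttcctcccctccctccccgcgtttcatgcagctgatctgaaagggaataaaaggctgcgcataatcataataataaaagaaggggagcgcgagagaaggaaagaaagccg
Nrarp: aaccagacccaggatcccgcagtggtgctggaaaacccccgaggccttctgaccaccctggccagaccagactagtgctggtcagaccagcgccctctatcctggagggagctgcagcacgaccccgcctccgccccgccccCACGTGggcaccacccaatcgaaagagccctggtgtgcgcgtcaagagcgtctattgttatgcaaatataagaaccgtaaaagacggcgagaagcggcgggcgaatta

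The windows differ in base composition. The Notch4 window has 4 CpG dinucleotides, under the median of 6 over all windows, whereas those of Notch1, Jag1 and Nrarp have 16, 20 and 18. Their GC content was 58.4%, 66.0%, 57.2% and 61.2% for Notch4, Notch1, Jag1 and Nrarp, against a median of 52.4%. The windows of Jag2, Notch2 and Dll4, genes that did not pass, hold 54, 34 and 14 CpG dinucleotides.

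Among the receptors, Notch4, which is found mainly in endothelium, separated the populations most widely. It read 9.92, 8.20 and 6.91 in Tie2-positive replicates 1, 2 and 3 and 4.92, 4.16 and 5.07 in Tie2-negative replicates 1, 2 and 3. The groups did not overlap, and the Tie2-positive arrays ranked as they did in the endothelial marker median and in Tek. Notch4 minus the endothelial marker median of the same array was -1.81, -2.07 and -1.99 in the Tie2-positive replicates, a range of 0.26, while the range of Notch4 itself was 3.02. For the other 9 genes the range of this difference ran from 0.84 (Nrarp) to 5.50 (Notch2), and for Notch1, Notch2, Jag2, Dll4, Hey1 and Heyl it was wider than that of the gene itself. The rise was 3.63 ± 0.72 on the log2 scale (SE, n = 3 per population; 95% interval 1.92 to 5.34; limma adjusted p = 0.0341). The call was lost without any of the Tie2-negative replicates 1, 2 and 3 (adjusted p = 0.122, 0.126 and 0.0888) and without Tie2-positive replicate 2 (0.0872). It was also lost with the replicate number fitted as a block (0.0684). The adjusted p ranged from 0.00221 to 0.126 over the alternatives other than the one chosen after seeing the data.

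Of the 21 probe sets of the 10 genes, 3 were called higher, against 3.39% of all 45037 probe sets, and for Notch4 only 1 of its 3 was. The other probe sets of Notch4 gave differences of 0.40 (95% interval -0.42 to 1.22) and -0.22 (-0.64 to 0.21), neither of which was called. Their means lay between 4.47 and 5.24 in both populations. Over the mean of the 3 probe sets Notch4 was higher by 1.27 and did not pass (limma adjusted p = 0.0896).

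Notch1, the receptor through which endothelial tip and stalk cells are specified and which T cells need for their development, read 10.85, 9.43 and 9.50 in Tie2-positive replicates 1, 2 and 3. The Tie2-negative replicates read 7.17, 8.10 and 7.82, and the groups did not overlap. It rose by 2.23 ± 0.45 on the log2 scale (SE, n = 3 per population; 95% interval 1.16 to 3.30; limma adjusted p = 0.0357). Tie2-positive replicates 2 and 3, which differed by 1.37 in the endothelial median, were alike in Notch1. The call was lost without Tie2-negative replicate 1, 2 or 3 (adjusted p = 0.131, 0.103 and 0.0976) or Tie2-positive replicate 2 (0.0644). It was also lost with the replicate number fitted as a block (0.0983). Over the alternatives other than the one chosen after seeing the data, the adjusted p ranged from 0.00589 to 0.131. The other probe set of Notch1 gave 0.95 (95% interval -0.04 to 1.94), its groups overlapped, and over the mean of both the rise of 1.59 did not pass (adjusted p = 0.0744).

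Notch2, a receptor used by B cells and monocytes as well as by vessels, was the receptor that did not follow the sort. It read 8.97, 9.34 and 9.21 in Tie2-negative replicates 1, 2 and 3 and 9.52 and 9.29 in Tie2-positive replicates 2 and 3, but 6.63 in Tie2-positive replicate 1. The Tie2-positive replicate with the low Notch2 value was also the array with the low Ptprc value, 4.87 against at least 9.42 on the other arrays. Gata1, an erythroid marker, was likewise low there, 5.575 against at least 9.09, while the erythroid median was low in all Tie2-positive arrays (5.13 to 7.09). The neutrophil and monocyte median was low there (6.08) but also in Tie2-negative replicate 1 (6.35), where Notch2 read 8.97. What lies behind the Notch2 value was not tested. The difference of -0.69 ± 0.74 on the log2 scale (SE, n = 3 per population; 95% interval -2.45 to 1.07) did not pass (limma adjusted p = 0.555). Its direction rested on that array: without Tie2-positive replicate 1 the difference was 0.24 (adjusted p = 0.493), and with replicate 1 alone it was -2.54 (adjusted p = 0.00197, a setting chosen after seeing the data). The adjusted p ranged from 0.372 to 0.775 over the other alternatives. The other Notch2 probe set ranged from 5.44 to 5.92 on all 6 arrays and gave -0.24 (95% interval -0.63 to 0.15).

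Jag1, a ligand of the Jagged type that endothelial and many stromal cells display, had the widest separation of the ligands. It read 9.38, 7.27 and 7.49 in Tie2-positive replicates 1, 2 and 3, and 4.10, 3.93 and 3.90 in Tie2-negative replicates 1, 2 and 3. The lowest Tie2-positive value thus lay far above all Tie2-negative values, which were within 0.20 of each other. The rise was 4.07 ± 0.53 on the log2 scale (SE, n = 3 per population; 95% interval 2.80 to 5.34; limma adjusted p = 0.0130). It was 3.40 without Tie2-positive replicate 1 (adjusted p = 0.000303). The call was lost without Tie2-negative replicate 1 or 2 (adjusted p = 0.0697 and 0.0715) and with the replicate number fitted as a block (0.0521). The adjusted p ranged from 0.000303 to 0.0715 over the alternatives other than the one chosen after seeing the data.

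The probe sets of Jag1 also disagreed in size. A second one gave 1.06 (95% interval 0.44 to 1.69), with groups that did not overlap, and did not pass (limma adjusted p = 0.0673 over 45037 probe sets). The third gave 0.15 (-0.18 to 0.47) and stayed between 5.20 and 5.51 on every array. Over the mean of the 3 probe sets Jag1 was higher by 1.76 and still passed (adjusted p = 0.0244), the only Notch gene that did in that setting.

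Jag2, the other Jagged ligand, read 8.65, 7.67 and 7.39 in Tie2-positive replicates 1, 2 and 3 and 7.27, 7.30 and 6.91 in the Tie2-negative replicates. The groups lay close but did not overlap, and the difference of 0.74 ± 0.35 on the log2 scale (SE, n = 3 per population) did not pass (limma adjusted p = 0.214). The other Jag2 probe set gave a wider difference of 1.36 (95% interval 0.43 to 2.28), with values of 8.01, 6.58 and 6.52 against 5.63 to 5.71, and did not pass either (adjusted p = 0.0959). Both probe sets were highest in Tie2-positive replicate 1.

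Dll4, the Delta-like ligand of arterial and sprouting endothelium, read 7.06, 6.52 and 6.32 in Tie2-positive replicates 1, 2 and 3 and 6.42, 5.51 and 6.23 in the Tie2-negative replicates. The groups overlapped, since Tie2-positive replicate 3 lay below Tie2-negative replicate 1. The difference was 0.58 ± 0.31 on the log2 scale (SE, n = 3 per population; 95% interval -0.15 to 1.31; limma adjusted p = 0.256), an interval that leaves room for no change and for a rise of over 2-fold. The second probe set gave 0.58 too (-0.33 to 1.48), and only its value in Tie2-positive replicate 1, 7.37, stood above the 5.71 to 6.00 of the other arrays.

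**Figure D3:**
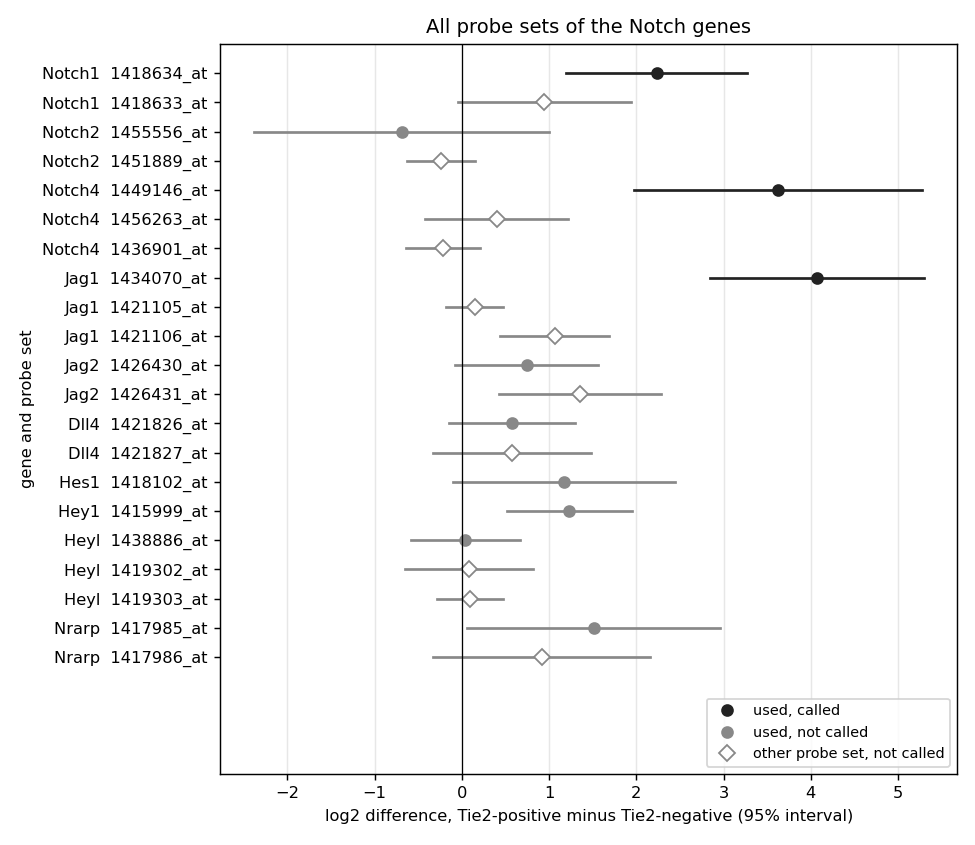
Log2 difference (Tie2-positive minus Tie2-negative) with its 95% interval for all 21 probe sets of the 10 Notch genes, fitted with limma over 45037 probe sets. Circles mark the probe set used for a gene and diamonds the others; the 3 called probe sets are those used for Notch1, Notch4 and Jag1, and 0 of the 11 others were called, against 3.39% of all probe sets called higher.

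The median log2 difference was 1.2 over the 4 target genes, 2.23 over the 3 receptors and 0.74 over the 3 ligands. No test compared these groups. Nrarp, a small ankyrin-repeat protein that is induced by Notch and feeds back on it, read 11.44, 9.41 and 8.88 in Tie2-positive replicates 1, 2 and 3 and 8.18, 8.40 and 8.61 in the Tie2-negative replicates. The groups did not overlap, and Tie2-positive replicate 1 stood 2.03 and 2.56 above replicates 2 and 3. The difference of 1.51 ± 0.63 on the log2 scale (SE, n = 3 per population; 95% interval 0.0076 to 3.02) did not pass (limma adjusted p = 0.173). Without Tie2-positive replicate 1 it was 0.75, and with that array alone in its population it was 3.04 (adjusted p = 0.105 and 0.00101; the latter setting was chosen after seeing the data). The second probe set followed the same order, 10.04, 8.50 and 7.80, but its lowest value fell among the Tie2-negative values of 7.78 to 7.97.

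Hes1, a repressor that many cell types make in response to Notch, read 9.66, 7.76 and 7.70 in Tie2-positive replicates 1, 2 and 3 and 7.04, 7.65 and 6.92 in the Tie2-negative replicates. Only Tie2-positive replicate 1 stood clear of the other population; replicates 2 and 3 were within 0.11 of Tie2-negative replicate 2. The difference of 1.17 ± 0.55 on the log2 scale (SE, n = 3 per population; 95% interval -0.15 to 2.48) did not pass (limma adjusted p = 0.214). It was 0.52 without Tie2-positive replicate 1.

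Hey1, the Hey repressor of arterial endothelium, was the target gene nearest to the threshold. It read 8.19, 7.20 and 8.21 in Tie2-positive replicates 1, 2 and 3, and 6.57, 6.67 and 6.65 in the Tie2-negative replicates. The groups did not overlap, and here replicate 3 was as high as replicate 1. The difference was 1.23 ± 0.30 on the log2 scale (SE, n = 3 per population; 95% interval 0.51 to 1.96; limma adjusted p = 0.0586). Hey1 passed with the values as deposited (1.38, adjusted p = 0.0415) and with arrays centred on their medians (1.42, 0.0393). It also passed with dim genes left out (0.0470) and without Tie2-positive replicate 2 (0.0322). The adjusted p ranged from 0.0322 to 0.165 over the alternatives other than the one chosen after seeing the data.

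Heyl, the Hey repressor known from mural cells, did not separate the populations. It read 6.10, 6.29 and 6.93 in Tie2-positive replicates 1, 2 and 3 and 6.65, 6.15 and 6.39 in the Tie2-negative replicates. The difference was 0.042 ± 0.27 on the log2 scale (SE, n = 3 per population; 95% interval -0.59 to 0.67; limma adjusted p = 0.927), so the interval excludes a change of 2-fold in either direction. Its other probe sets gave 0.083 (-0.65 to 0.82) and 0.094 (-0.28 to 0.47). Of 10 mural marker genes, Mcam, which endothelium also expresses, rose by 3.83 and Cnn1 fell by 0.56, and the median of the list was 7.35, 6.59 and 6.83 in Tie2-positive replicates 1, 2 and 3, with 5.60 to 6.17 on the Tie2-negative arrays. The other 8 mural genes, Pdgfrb (0.39), Rgs5 (1.33), Acta2 (1.06), Tagln (1.14), Kcnj8 (2.43), Abcc9 (2.09), Cspg4 (-0.46) and Myh11 (-0.13), did not pass, and 6 of the 10 had an unadjusted p under 0.05.

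Within the Tie2-positive population, 7 of the 10 genes were highest in replicate 1, the array with the highest endothelial median. The others were Hey1 and Heyl, highest in replicate 3, and Notch2, highest in replicate 2. The share of all genes that were highest in replicate 1 was not analysed, so this count is not shown to be particular to Notch genes. Replicate 1 exceeded replicate 3 by 3.02 for Notch4, 2.56 for Nrarp, 1.97 for Hes1, 1.89 for Jag1, 1.35 for Notch1, 1.26 for Jag2 and 0.74 for Dll4, against 2.84 for the endothelial median.

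The genes whose values ran most alike over the 6 arrays were Vegfc and Kitl for Jag1 (Pearson r of 0.998 each), Ltbr and S100a16 for Notch4 (0.999 and 0.998) and Gramd1a and Jkamp for Notch1 (0.998 each). For Notch2 they were Ccdc181 and Nucks1 (0.998 and 0.994), and for Heyl Osbpl8 and Ssr1 (0.954 and 0.949). These values describe 6 arrays that fall into 2 populations, chosen by a search over all brighter genes, and carry no test.

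The other pathway genes were counted in the same way. Of 51 further Notch pathway genes listed, 48 were measured. Among them 1 rose (2.08%) and 1 fell, against 4.86% and 2.53% of all genes. An unadjusted p under 0.05 was found for 16, against 28.6% of all genes. Counts this small are not shown to differ from those shares. Differences ran from -1.29 to 1.92 on the log2 scale, 24 above and 24 below 0 (median 0.013), and the Tie2-positive arrays lay above the others in 12 genes and below them in 9, against 15.2% and 23.9% of all genes. Both called genes were lost in the fits without Tie2-negative replicate 1, 2 or 3 or Tie2-positive replicate 2 (0 of 48 in each). They were also lost with the replicate block (0 of 48), while 5 genes were called without Tie2-positive replicate 1. With Tie2-positive replicates 2 and 3 left out 7 rose and 1 fell, in a setting chosen after seeing the data.

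The gene that rose was Mfng, manic fringe, a glycosyltransferase that adds sugar to Notch receptors and thereby changes which ligands they answer to. It read 10.56, 9.40 and 8.97 in Tie2-positive replicates 1, 2 and 3 and 7.36, 8.05 and 7.76 in the Tie2-negative replicates. The groups did not overlap, and the rise was 1.92 ± 0.44 on the log2 scale (SE, n = 3 per population; limma adjusted p = 0.0477). Its relatives Lfng and Rfng gave -0.64 and -0.45 and did not pass. Mib1, a ubiquitin ligase that drives the uptake of ligands by the cell that displays them, gave 0.93 ± 0.26 and did not pass either (adjusted p = 0.0764).

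The gene that fell was Dtx3, a member of the Deltex family of ubiquitin ligases. It read 7.38, 7.42 and 7.26 in the Tie2-positive and 8.32, 8.15 and 8.11 in the Tie2-negative replicates, and fell by 0.84 ± 0.19 on the log2 scale (SE, n = 3 per population; limma adjusted p = 0.0453). This call depended on the scaling, since it did not pass with the values as deposited (-0.65, adjusted p = 0.0781) or with arrays centred on their medians (-0.61, 0.0931), and its adjusted p ranged from 0.00951 to 0.140. Numb, an endocytic inhibitor of Notch, gave 1.20 ± 0.32 and did not pass (adjusted p = 0.0714), and the ubiquitin ligase Itch gave -0.18 ± 0.19 (adjusted p = 0.532).

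Among genes of receptor cleavage, 0 of 8 measured were called by limma and 2 had an unadjusted p under 0.05, a share close to the 28.6% of all genes. Furin, which processes Notch receptors before they reach the surface, gave 1.14 ± 0.30 without overlap (SE, n = 3 per population; adjusted p = 0.0658). Adam10, the protease that makes the first ligand-dependent cut, read 11.41 ± 0.38 in the Tie2-positive and 11.55 ± 0.54 in the Tie2-negative arrays (SD, n = 3), and Psenen, a subunit of gamma-secretase, gave 0.50 ± 0.20 (SE; limma adjusted p = 0.157). In the nuclear complex 0 of 6 genes were called and 1 had an unadjusted p under 0.05, the acetyltransferase Kat2b, at -1.29 ± 0.32 without overlap (adjusted p = 0.0590). Rbpj, named like Furin and Kat2b after its value was seen, read 9.33 ± 0.53 against 9.07 ± 0.12 (SD, n = 3), a difference of 0.26 with a 95% interval of -0.46 to 0.98. Ep300 and Snw1, coactivators that join Rbpj, gave -0.57 and -0.18, and the corepressors Tle3 and Tle4 gave -0.32 and -0.21, without a call.

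Further ligands and Hes genes did not pass. Dll1, a Delta-like ligand, read 9.24, 8.02 and 7.31 in Tie2-positive replicates 1, 2 and 3, and the Tie2-negative arrays read 6.36 to 6.75. Its groups did not overlap, and the difference of 1.57 ± 0.48 (SE, n = 3 per population; limma adjusted p = 0.0934) was wider than that of Dll4, although no test compared the ligands. Dlk2, a ligand-like protein that lacks the domain with which Delta ligands bind Notch, gave -0.20 ± 0.19, and Hes6 and Hes7 gave 0.25 ± 0.32 and -0.46 ± 0.16.

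**Figure D4:**
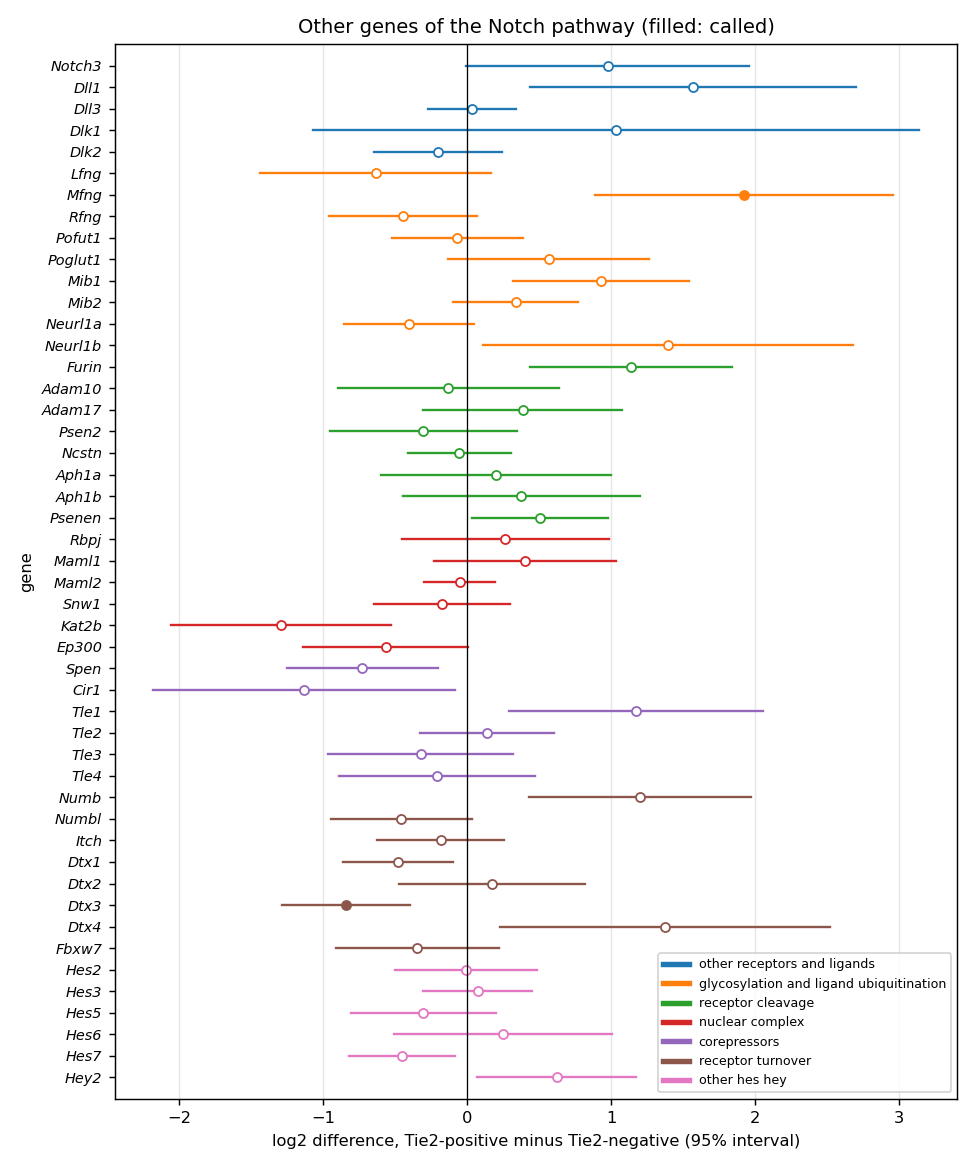
Log2 difference (Tie2-positive minus Tie2-negative) with its 95% interval for the 48 measured Notch pathway genes outside the main set, coloured by step of the pathway. Mfng (1.92) and Dtx3 (-0.84) are filled as called; the other 46 genes are open.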

How the data were processed

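Gene expression was measured on 6 arrays, 3 per sorted population, from RNA amplified over 2 rounds. The authors deposited 1 log2 value per probe set and array. The log2 scale was inferred from the values (2.56 to 14.78); background correction, summarisation and genome build are not given in the sources used here. The values carry no detection calls, so whether a low value lay above background was not analysed, and precision is limited by how few arrays there are. No arrays held identical values (0 pairs).

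Of 45101 probe sets, 64 controls were left out, 34945 carried 1 gene symbol, 932 several and 9160 were unnamed here. RefSeq gene IDs (GRCm38.p6) matched 34741 of the symbols and changed 0. Array medians differed by up to 0.08 and upper quartiles by up to 0.27, above the limit of 0.1, so the values were quantile normalized. The upper quartiles were 7.26 to 7.33 in the Tie2-negative and 7.45 to 7.53 in the Tie2-positive arrays, so this also removed a difference between the populations. Populations were compared with limma 3.58.1 in R 4.3.3 (lmFit on all 6 arrays without covariates, then eBayes with trend; two-sided), and p-values were adjusted by Benjamini-Hochberg across 18193 genes. The procedure was tested on simulated data, where it missed most of the smallest differences that had been put in. The RNA-length measure, the Actb and Gapdh controls at the 3′ end minus those at the 5′ end, was 1.44 to 1.87 in the Tie2-positive and 1.82 to 2.00 in the Tie2-negative arrays.

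The Notch genes and gene lists were chosen with earlier results of these data known. All 10 Notch genes are named, and of the other pathway genes those called and the 2 brightest per step. Lfng and Rfng, relatives of Mfng, and Furin, Rbpj and Kat2b are named outside this rule. Alternatives were a replicate block, the deposited or median-centred values, leaving out genes under the 40th percentile of mean level, the mean of a gene's probe sets, no x_at, s_at or a_at probe sets, other variance models, array weights and leaving out arrays. Offsets before taking logs were not run, since the values are logs.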

Additional observations from a re-analysis of the deposited data

How the results depend on the processing

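Over the alternatives, the differences of the 8 Notch genes other than Notch2 and Heyl kept their direction. Notch2 turned to 0.16 with array weights and to 0.24 without Tie2-positive replicate 1, with values from -1.21 to 0.24 when 1 array was left out. Heyl ran from -0.20 (without Tie2-positive replicate 3) to 0.21 when 1 array was left out, was -0.08 without Tie2-negative replicate 2, and was -0.30 without Tie2-positive replicates 2 and 3. The number of Notch genes called, 3, was 1 over the mean of all probe sets, 8 without Tie2-positive replicates 2 and 3 (chosen after seeing the data) and from 0 to 3 when 1 array was left out. With the 40th percentile filter Jag1 had no value. Of the other pathway genes, 2 by the main setting, 15 were called with array weights, 8 without Tie2-positive replicates 2 and 3, and 0 to 5 with 1 array left out. For the 21 probe sets the count of 3 was 5 with array weights and 0 to 4 with 1 array left out. Over all genes, 1345 were called, against 4639 with array weights, 3637 without Tie2-positive replicates 2 and 3, and 0 to 2148 with 1 array left out. The cause of these changes was not tested.

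Same-numbered arrays deviated from their population means with correlations of 0.14, 0.005 and 0.19 over genes. The labels do not say that the numbers pair the samples, and the main fit left them unpaired. Its calls depend on that choice. The neutrophil and monocyte median rose from replicate 1 to replicate 3 in both populations. Of the 6 arrays, 5 correlated best with their own number, a hint from the data and not the design. With the replicate block limma called 0 Notch genes (4 at an unadjusted p under 0.05), 0 other pathway genes (18 unadjusted), 1 of the 21 probe sets and 0 of all genes (5080 unadjusted; smallest adjusted p 0.0521).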
